A study of Mus musculus with 12 samples.

Results

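The transcriptome described here is that of isolated MC3T3-E1 osteoblasts on titanium with the control surface, at the end of 7 days of culture. It consists of 3 libraries, all those labelled isolated control, of 12 in the series. MC3T3-E1 subclone 14 is a clonal mouse line of preosteoblasts from the calvaria, the roof of the skull. The cells grew on titanium (Ti) discs in 24-well plates in a medium that promotes bone formation, to which the phosphate donor β-glycerophosphate (7 mM) and the collagen cofactor L-ascorbic acid (5 µg/mL) were added. No insert, osteoclast or RANKL is recorded for them. The other 9 libraries (3 from isolated cells on nanotopography and 3 on each surface from co-culture) came from cells given the same additions. In co-culture, inserts with 0.4 µm pores holding RAW 264.7 cells under 50 ng/mL RANKL were placed above the osteoblasts from day 5. All results rest on 1 clone of 1 line, so the spread between libraries covers neither other lines nor primary cells. No contrast was tested here, and the values are levels, ranks and counts. Where counts of the other groups appear, they stand beside these levels as a description.

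Osteoblasts differentiate from mesenchymal progenitors under the transcription factors Runx2 and osterix (Sp7). They lay down a matrix of type I collagen, cross-link it and mineralise it with the help of phosphatases and acidic matrix proteins. Some osteoblasts become buried as osteocytes, which make sclerostin (Sost), an inhibitor of Wnt signalling, and FGF23, a phosphate hormone. Cells of the osteoblast lineage also set osteoclast formation through RANKL (Tnfsf11), CSF1 and osteoprotegerin (Tnfrsf11b), the decoy receptor of RANKL.

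The 3 libraries held 7717365, 8386870 and 5866842 counts in replicates 1, 2 and 3, over the 52654 genes listed in all 12 libraries. A gene was called expressed when it had at least 1 CPM, the count scaled to the library total, in each of the 3 libraries, and near absent when its counts summed to 3 or fewer, which corresponds to 0.137 CPM over the 3 libraries. Limits of this kind cover counting error only. By this rule 24.2% of all genes and 49.7% of the 21802 protein-coding genes were expressed, and 66.6% of all genes and 43.7% of the protein-coding ones were near absent. The remaining 9.23% of all genes and 6.67% of the protein-coding ones were in between. Levels of different genes are compared below in TPM, which divide counts by the length of a gene's merged exons before scaling over all gene types, and ranks are among protein-coding genes. Scaled over nuclear protein-coding genes alone, the mean TPM of 126 such genes in a check of levels were 1.79 to 1.80 times as high, and their order within a library cannot change. Levels also depend on the length: with the mean transcript length, 62 of the 131 genes in the check moved by more than 1.5 times.

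Replicate 3 stood somewhat apart from the other libraries. Over the 10825 expressed protein-coding genes, log2 levels of replicates 1 and 2 correlated across genes with a Pearson r of 0.992, against 0.981 for replicates 1 and 3 and 0.987 for 2 and 3 (genes are not independent replicates). Replicate 3 held 5.46% of its counts in Gm26917 and Gm42418, predicted genes at which ribosomal RNA reads often align, against 2.77% and 3.21% in replicates 1 and 2. Mitochondrial ribosomal RNA took 9.80%, 8.01% and 6.70% of counts in replicates 1, 2 and 3. The biological coefficient of variation from edgeR was 11.7% over the 3 libraries, 7.48% without replicate 3 and 15.8% without replicate 2. In bulk RNA, a lower level can come from fewer cells of a kind or from less RNA per cell, and these cannot be told apart.

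All 6 osteoblast markers were expressed, and 4 of them were among the 5 protein-coding genes with the highest mean TPM. Col1a1 (chr11:94936224-94953042, mm10), the α1 chain of type I collagen, had 23208, 22180 and 19461 TPM in replicates 1, 2 and 3 and was the highest protein-coding gene in each library. Ibsp (chr5:104299171-104311469), which encodes bone sialoprotein, had 22036, 19962 and 14429 TPM. Sparc, the gene of osteonectin, had 16286, 19225 and 18013 TPM. Col1a1 was above Ibsp in all 3 libraries, whereas Ibsp was above Sparc in only 2 of them. With merged exon lengths Ibsp and Sparc were thus not separated beyond their spread. Col1a2, the α2 chain of type I collagen, had a mean of 8173 ± 422 TPM (SD, n = 3) and rank 5. The transcription factor genes were lower: Sp7 had 378 ± 14.4 TPM (rank 163) and Runx2 130 ± 16.0 TPM (rank 634). Together the 6 genes took 11.2 ± 0.652% of all counts, from 10.4% to 11.6% in the 3 libraries. Under the mean transcript length Col1a1 stayed at rank 1, Ibsp had rank 4 and Runx2 rank 355. Sparc then had a mean of 27104 TPM and Ibsp 9693. By CPM, with no length, Sparc had 21492 and Ibsp 12353, so their closeness depends on the length used.

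**Figure D1:**
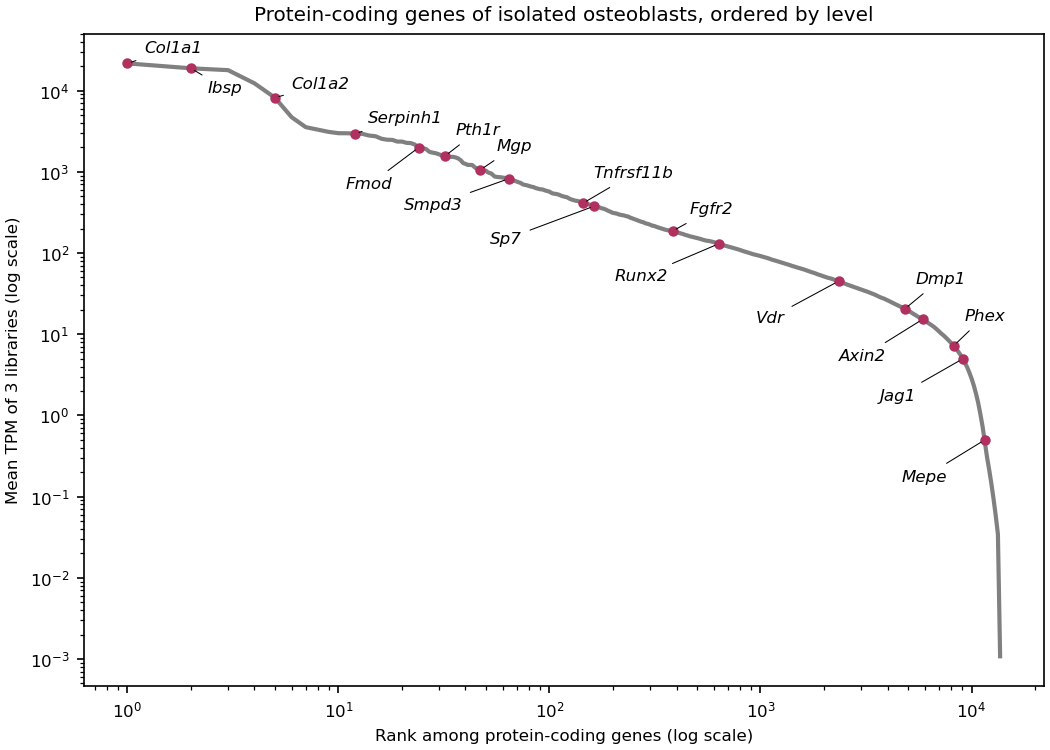
Mean TPM of 3 libraries (log scale) against rank (log scale) for protein-coding genes of isolated osteoblasts on control titanium, with a dot at each named gene. Col1a1, Ibsp and Col1a2 sit at ranks 1, 2 and 5, Runx2 at rank 634, Dmp1 at rank 4829 and Mepe at rank 11532.

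Genes of matrix proteins, chaperones, translation, the cytoskeleton and mitochondria made up the top of the protein-coding transcriptome. The 20 protein-coding genes with the highest TPM took 21.3 ± 0.501% of protein-coding TPM (SD, n = 3). Besides the markers they included Serpinh1 (2958 ± 199 TPM), the collagen-specific chaperone HSP47, and Fn1 (2482 ± 59.2 TPM), which encodes fibronectin. Calr (2987 ± 410 TPM), the endoplasmic reticulum chaperone calreticulin, the elongation factor genes Eef2 and Eef1a1, the cytoskeletal genes Actb and Vim, and Lgals1 (galectin-1) were also among the 20. The list was completed by Hsp90ab1, 2 ribosomal protein genes, Rplp1 and Rpl32, and 5 mitochondrially encoded genes, mt-Co1, mt-Nd1, mt-Nd5, mt-Nd2 and mt-Nd6. By CPM, with no length, 13 of the 20 were still among the 20 highest, and the same 13 with the mean transcript length. They held all 4 matrix markers, Serpinh1, Fn1 and Calr, but neither Lgals1 nor the ribosomal protein genes. Across all gene types the 10 with the highest CPM were mt-Rnr2, Col1a1, Col1a2, Gm26917, Sparc, mt-Rnr1, Ibsp, the nuclear RNA Malat1, Fn1 and Gm42418.

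Levels varied widely within both the fibrillar and the non-fibrillar collagen genes, and the fibrillar list had the higher median. All 11 fibrillar collagen genes were expressed, with a median of 414 TPM. The median was 1.20 TPM over all protein-coding genes and 17.3 TPM over the expressed ones. After type I collagen came Col5a2 at 1383 ± 113 and Col5a1 at 1216 ± 64.7 TPM, chains of the type V collagen that controls fibril diameter. Col3a1 had 862 ± 65.7 TPM. Of the 33 other collagens 17 (51.5%) were expressed, beside 49.7% of all protein-coding genes. The highest of these were Col6a1 (1042 ± 23.7 TPM), Col6a3, Col12a1 and Col6a2. Near absent were 10 of the 33, among which Col10a1, the collagen of hypertrophic cartilage, had 1 count and Col4a3 and Col25a1 had none. All collagen genes together took 9.88 ± 0.577% of counts, and Col1a1 with Col1a2 alone 7.74 ± 0.463%.

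Genes that fold, modify and cross-link collagen were expressed in 28 of 33 cases. P4hb (2273 ± 308 TPM) and P4ha1 (966 ± 30.4 TPM), subunits of prolyl 4-hydroxylase, followed Serpinh1, and Fkbp10, a prolyl isomerase gene for collagen folding, had 573 ± 47.4 TPM. Lox, which starts cross-linking by oxidising lysine, had 554, 552 and 471 TPM in replicates 1, 2 and 3. Adamts3, Tll1 and Tll2, which encode procollagen proteases, had 0 counts, while their relatives Adamts2 (60.9 ± 1.37 TPM) and Bmp1 (58.6 ± 3.82 TPM) were expressed.

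Among proteoglycans, 21 of 29 genes were expressed. The small leucine-rich Fmod (1988 ± 281 TPM, rank 24) and Bgn (1281 ± 25.1 TPM), and the cell-surface genes Gpc1 (848 ± 66.7 TPM) and Sdc4 (656 ± 60 TPM), were the highest. Acan, the large proteoglycan gene of cartilage, had 3 counts. Of the 43 glycoprotein and elastic fibre genes 33 were expressed, headed by Fn1, Tnc (547 ± 9.40 TPM), Thbs1 (487 ± 28.6 TPM) and Postn, the periostin gene (404 ± 49.8 TPM). Eln, which encodes elastin, had 0 counts in these 3 libraries and in the other 9, although the fibrillin genes Fbn1 and Fbn2 were expressed at 25.4 ± 2.12 and 35.3 ± 0.805 TPM. Proteases and their inhibitors were expressed in 23 of 32 cases: the gelatinase gene Mmp2 led with 1080 ± 23.1 TPM, ahead of Timp1 (374 ± 26.2 TPM), Ctsk (356 ± 14.2 TPM) and Timp2 (321 ± 34.1 TPM). Mmp3 and Mmp10, stromelysin genes, had 0 counts.

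Of 18 genes of bone matrix proteins 14 were expressed, but their levels ranged widely. Mgp, whose product inhibits calcification, had 965, 1039 and 1160 TPM in replicates 1, 2 and 3. Spp1, the gene of osteopontin, had 453, 384 and 362 TPM. The osteocalcin gene Bglap had 325, 380 and 271 TPM, and its neighbour Bglap2 300.2, 330 and 251 TPM. Bglap was above Bglap2 in all 3 libraries, but the gene pair is near identical: 56.6% of the 50-base words in Bglap transcripts and 88.2% of those in Bglap2 also occur in other genes, so the split between them is uncertain. Bglap3, the third copy in the cluster, had 7, 8 and 2 counts. Omd, the osteomodulin gene, varied most among the expressed genes of this list, with 203, 121 and 93.6 TPM and replicate 3 lowest.

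The SIBLING genes, acidic matrix proteins encoded side by side on chromosome 5, showed how unevenly neighbouring bone genes were expressed. From Dspp (chr5:104170712-104180127) the cluster runs through Dmp1, Ibsp and Mepe to Spp1 (chr5:104435118-104441050). Dspp, the dentin gene, had 0 counts in all 12 libraries. Dmp1, a gene of late osteoblasts and osteocytes, had 25.0, 21.5 and 14.9 TPM, with replicate 3 lowest. Mepe, an osteocyte gene, had 3, 2 and 1 counts. Ibsp was at rank 2 and Spp1 at rank 151, while Dmp1 was at rank 4829.

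Mineralisation genes were expressed in 12 of 13 cases. Smpd3, a neutral sphingomyelinase gene needed for bone mineralisation, had 804, 884 and 774 TPM. Anxa5, an annexin gene of matrix vesicles, had 701, 787 and 850.5 TPM, so the pair was not in one order in all libraries. Anxa6 followed at 259 ± 41.0 TPM. Alpl, the tissue-nonspecific alkaline phosphatase that removes the inhibitor pyrophosphate, had 96.6, 114 and 117 TPM (rank 796). Phospho1, a phosphatase gene of matrix vesicles, had 216, 252 and 209 TPM, but 89.6% of its exon bases lie within exons of another annotated gene on the same strand, and reads there cannot be assigned to 1 gene by position. The phosphate transporter genes Slc20a2 (9.46 ± 1.75 TPM) and Slc20a1 (8.41 ± 1.39 TPM) were low. Enpp1, which generates pyrophosphate, was lower still at 0.566 ± 0.134 TPM, while the pyrophosphate transporter gene Ank had 49.0 ± 1.14 TPM. Car2, a carbonic anhydrase gene, had 2 counts in all, and 25 in the other 9 libraries.

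**Figure D2:**
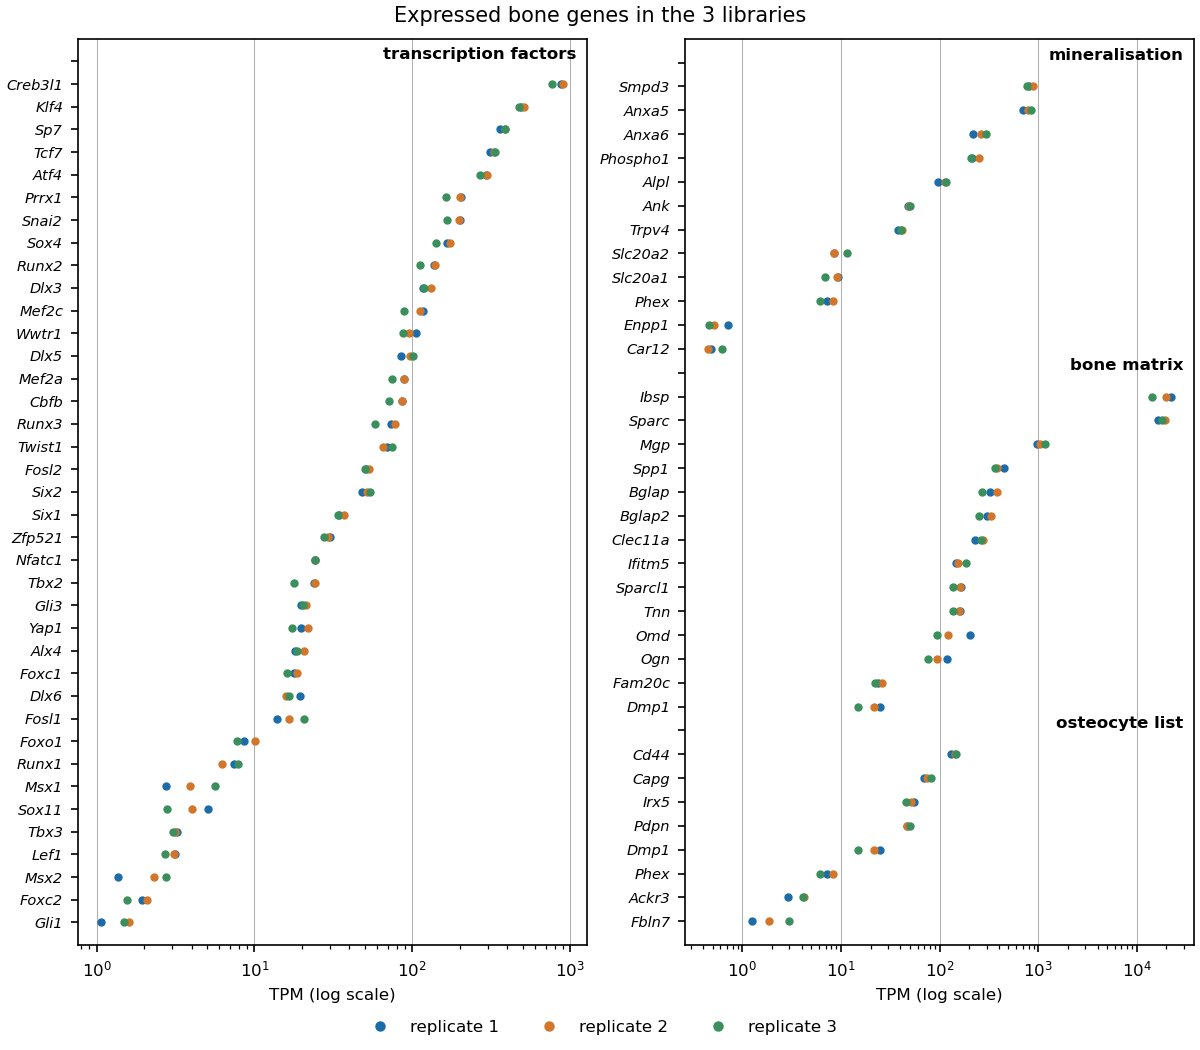
TPM (log scale) of expressed genes of the transcription factor, mineralisation, bone matrix and osteocyte lists, with 1 dot per library coloured by replicate. Ibsp and Sparc stand far to the right, with 14429 TPM in the lowest library, and the replicates lie close together for most genes.

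Transcription factor genes of the osteoblast lineage were expressed in 39 of 44 cases, with a median of 26.6 TPM over the list. Creb3l1, also called OASIS, which activates Col1a1, was the highest at 848 ± 75.2 TPM (rank 61). Klf4 had 491 ± 15.6 TPM, Sp7 378 ± 14.4 and the Wnt effector gene Tcf7 325 ± 12.9, and this order held in all 3 libraries. Below them were Atf4 (286 ± 13.8 TPM), the mesenchymal gene Prrx1 (189 ± 22.0 TPM) and Snai2 (188 ± 20.1 TPM). The Runx partner gene Cbfb had 81.2 ± 8.46 TPM, and Runx3 and Runx1 had 69.7 ± 10.3 and 7.14 ± 0.835. The homeobox genes Dlx3 and Dlx5 had 123 ± 7.87 and 94.3 ± 8.45 TPM, whereas Msx1 and Msx2 were at 4.11 ± 1.44 and 2.14 ± 0.701. Lef1, the relative of Tcf7, had only 2.98 ± 0.233 TPM. Near absent were Gli2 (1 count), Zbtb16 and Hand2, the last a gene of limb and branchial arch (both at 0 in all 12 libraries).

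Of 15 genes on the osteocyte list 8 (53.3%) were expressed, beside 49.7% of all protein-coding genes, and Sost and Fgf23 were not among them. The highest, Cd44 (141 ± 9.26 TPM), Capg (75.1 ± 6.50), Irx5 (50.7 ± 5.03) and Pdpn (47.5 ± 1.98), are not restricted to osteocytes. Dmp1, described above with the SIBLING genes, had 20.5 ± 5.12 TPM, and Phex, an endopeptidase gene of phosphate balance, had 7.20 ± 1.06 TPM. Sost, Fgf23, Reln and Tnfsf11 had 0 counts in these 3 libraries and in the other 9. A count of 0 allows up to 3 counts, or 0.137 CPM, over the 3 libraries. In Sost and Tnfsf11 0% of the 50-base words of the transcripts also occur in other genes, and no exon base overlaps another gene. Over the 89 distinct genes of the marker, transcription factor, mineralisation, matrix and osteocyte lists, 73 were expressed, 6 were in between and 10 were near absent. Of these 10, 8 had no count in any of the 12 libraries. Over all protein-coding genes 43.7% were near absent.

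Promoter windows are shown for 4 expressed bone genes, of ranks 2 to 297, and for 2 near-absent ones, to set their letters side by side. Each window holds the bases before the RefSeq gene start (GRCm38.p6), 5′ to 3′ on the gene's strand, without bases inside the annotated gene, which leaves 134 bases for Ibsp. Capitals mark CG pairs, the TATA-box letters TATAAA and the Runx core letters TGTGGT, each motif on either strand (TTTATA and ACCACA on the other). The windows lie at chr5:104299037-104299170 (plus strand) for Ibsp, chr5:104434861-104435110 (plus) for Spp1, chr11:95824250-95824498 (plus) for Phospho1, chr3:88384467-88384716 (minus) for Bglap, chr11:101967016-101967265 (minus) for Sost and chr14:78308044-78308293 (minus) for Tnfsf11.
Ibsp: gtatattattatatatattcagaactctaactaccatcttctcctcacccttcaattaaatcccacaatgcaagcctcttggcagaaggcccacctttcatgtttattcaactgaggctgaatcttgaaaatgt
Spp1: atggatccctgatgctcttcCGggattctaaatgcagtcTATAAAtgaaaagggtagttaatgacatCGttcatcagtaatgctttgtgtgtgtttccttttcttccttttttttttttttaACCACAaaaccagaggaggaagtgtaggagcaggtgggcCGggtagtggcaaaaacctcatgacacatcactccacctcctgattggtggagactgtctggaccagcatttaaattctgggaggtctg
Phospho1: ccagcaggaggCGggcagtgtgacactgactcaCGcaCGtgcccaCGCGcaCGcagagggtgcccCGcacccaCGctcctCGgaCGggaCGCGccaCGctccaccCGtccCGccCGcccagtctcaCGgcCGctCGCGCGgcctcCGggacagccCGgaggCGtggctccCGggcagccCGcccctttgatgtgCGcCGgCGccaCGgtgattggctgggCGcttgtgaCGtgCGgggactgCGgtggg
Bglap: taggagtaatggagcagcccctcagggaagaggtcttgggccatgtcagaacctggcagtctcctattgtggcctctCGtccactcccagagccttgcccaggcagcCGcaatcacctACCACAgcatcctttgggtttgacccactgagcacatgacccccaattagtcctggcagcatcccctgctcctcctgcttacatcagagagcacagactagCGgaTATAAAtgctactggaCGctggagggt
Sost: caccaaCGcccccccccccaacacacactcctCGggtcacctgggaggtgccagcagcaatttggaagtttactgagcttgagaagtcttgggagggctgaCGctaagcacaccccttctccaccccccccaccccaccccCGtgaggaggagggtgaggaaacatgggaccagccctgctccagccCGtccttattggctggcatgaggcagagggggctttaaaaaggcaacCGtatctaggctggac
Tnfsf11: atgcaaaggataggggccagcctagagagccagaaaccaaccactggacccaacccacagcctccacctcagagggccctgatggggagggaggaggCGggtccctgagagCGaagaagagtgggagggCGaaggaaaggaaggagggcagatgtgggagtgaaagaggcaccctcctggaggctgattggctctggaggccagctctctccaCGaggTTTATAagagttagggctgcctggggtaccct

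The windows of the expressed genes were unlike each other. Ibsp has 0 CG pairs and neither motif in its shorter window, and Spp1 has 3 CG pairs and 1 match of each motif. Phospho1 has 34 CG pairs and neither motif. Bglap has 4 CG pairs, 1 TATA-box match and 1 Runx core match, Sost 6 CG pairs and neither motif, and Tnfsf11 4 CG pairs and 1 TATA-box match. The sets of genes below were scored over the full 250 bases before the RefSeq start, not trimmed as the printed windows are. Over all protein-coding genes with a RefSeq window, which were 16487 of 21802, the median was 17 CG pairs for expressed genes and 3 for near-absent ones. The 27 expressed genes of the marker, mineralisation, matrix and osteocyte lists with a window had a median of 6, equal to that of the 5 near-absent ones and to that of all 32851 windows in the table. TGTGGT was in 29.6% of the windows of those 27 genes, 10.1% of those of all expressed genes, 14.6% of those of near-absent protein-coding genes and 14.1% of all windows, and in none of the 5 near-absent bone genes. TATAAA was in 18.5%, 5.67%, 19.95% and 12.4% of the same sets in that order, and in 1 of the 5. These are matches of letters and show no binding.

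Hormone receptor genes were expressed in 18 of 40 cases (45%), beside 49.7% of all protein-coding genes, and 1 stood far above the rest. Pth1r, the receptor gene of parathyroid hormone, had 1450, 1567 and 1678 TPM and rank 32. The next, the retinoic acid receptor gene Rarg, had 87.2 ± 6.48 TPM, followed by the thyroid hormone receptor gene Thra (78.6 ± 9.68 TPM), Rxra (54.0 ± 8.44 TPM) and the vitamin D receptor gene Vdr (44.9 ± 4.87 TPM). The growth hormone and glucocorticoid receptor genes Ghr and Nr3c1 had 44.5 ± 3.19 and 40.8 ± 4.74 TPM. The estrogen and progesterone receptor genes were low or near absent: Esr1 had 4.32 ± 0.474 TPM, Esr2 3 counts and Pgr none. Calcr, Fshr, Glp1r, Casr and Pth2r were also at 1 count or none.

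Growth factor receptor genes were expressed in 28 of 39 cases (71.8%), beside 49.7% of all protein-coding genes. Lifr (210 ± 9.03 TPM), a receptor gene of the interleukin 6 family, Fgfr2 (186 ± 2.02 TPM), Igf2r (164 ± 8.29 TPM) and the TNF receptor gene Tnfrsf1a (121 ± 18.8 TPM) led the list. Fgfr1 and Fgfr3 were expressed at 90.2 ± 6.41 and 65.4 ± 2.76 TPM, and Fgfr4 had 0 counts. Pdgfra and Pdgfrb, receptors typical of mesenchymal cells, had 50.5 ± 2.70 and 46.4 ± 2.23 TPM. Of the vascular receptor genes, Flt1 was expressed at 24.2 ± 0.498 TPM, and Kdr, Flt4 and Tek had 0 counts each. Of the 27 FGF, IGF, PDGF and VEGF family ligand genes 9 (33.3%) were expressed, beside the same 49.7%. Vegfa (186 ± 24.2 TPM), Pdgfa (185 ± 10.9), Gas6 (165 ± 18.7) and Pdgfc (75.1 ± 1.25) were the highest of them. Igf2 had 0 counts, but 64.6% of its exon bases lie within exons of another gene and 62.1% of its 50-base words occur elsewhere, so its absence is uncertain. Igf1 had 7.40 ± 0.395 TPM and Igf1r 17.9 ± 0.776. Igfbp4 was the highest of the IGF binding protein genes (228 ± 44.5 TPM), and Igfbp1 and Igfbp3 had 0 counts.

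In the TGF-β and BMP pathway 9 of 19 ligand genes, 22 of 27 receptor and mediator genes and 10 of 13 inhibitor genes were expressed. These shares were 47.4%, 81.5% and 76.9%, beside 49.7% of all protein-coding genes. Bmp4 was the highest ligand, with 182, 175 and 138 TPM and replicate 3 lowest. Inhba, the activin A subunit gene, had 73.0 ± 9.66 TPM, Tgfb3 68.4 ± 2.4 and Tgfb1 61.8 ± 2.48. Bmp2, Bmp3, Bmp5, Bmp6 and Bmp7 had 0 counts. Expressed receptor genes for these ligands ranged from Bmpr1a at 69.5 ± 6.89 to Acvr1b at 3.07 ± 0.902 TPM. Acvr2b had 2 counts, Acvrl1 1, and Acvr1c and Bmpr1b none, and the co-receptor gene Eng was in between with 17 counts. The highest mediator genes were Smurf2 (76.1 ± 3.11 TPM), a ubiquitin ligase gene, the BMP target gene Id3 (64.5 ± 4.05 TPM) and Smad3 (57.7 ± 7.25 TPM). Chrdl1, a chordin-like inhibitor gene, had 286, 246 and 230.5 TPM and exceeded Bmp4, the highest ligand, in each library. Fst, the activin antagonist follistatin, had 137 ± 4.89 TPM. Nog, the gene of noggin, had 0 counts in all 12 libraries.

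For Wnt signalling 8 of 19 ligand genes (42.1%), 15 of 19 receptor genes (78.9%) and 9 of 18 inhibitor genes (50%) were expressed. The share over all protein-coding genes was 49.7%. Wnt10a had 73.7, 78.1 and 90.2 TPM and Wnt10b 66.9, 72.0 and 63.9 TPM, ahead of Wnt6 (41.3 ± 7.14 TPM) and Wnt5b (23.3 ± 3.35 TPM), an order that held in all 3 libraries. Wnt10b is known as an osteogenic ligand. Wnt1, Wnt3a, Wnt7a, Wnt16 and 5 further ligand genes were near absent. The receptor gene Ryk had 90.5 ± 3.28 TPM, Lrp6 61.3 ± 7.22, Fzd5 55.3 ± 2.35 and Lrp5, whose mutations change human bone mass, 52.4 ± 5.76. Dkk3 (133 ± 2.69 TPM), Sfrp2 (120 ± 8.0 TPM) and Wif1 (102 ± 4.72 TPM) were the highest inhibitor genes, and each was above Wnt10a in all 3 libraries. Besides Sost, Sfrp1, Sfrp4, Sfrp5, Dkk4 and Kremen2 had 0 counts, and Dkk1 had 5. Axin2, a common target gene of the pathway, had 15.3 ± 0.938 TPM.

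**Figure D3:**
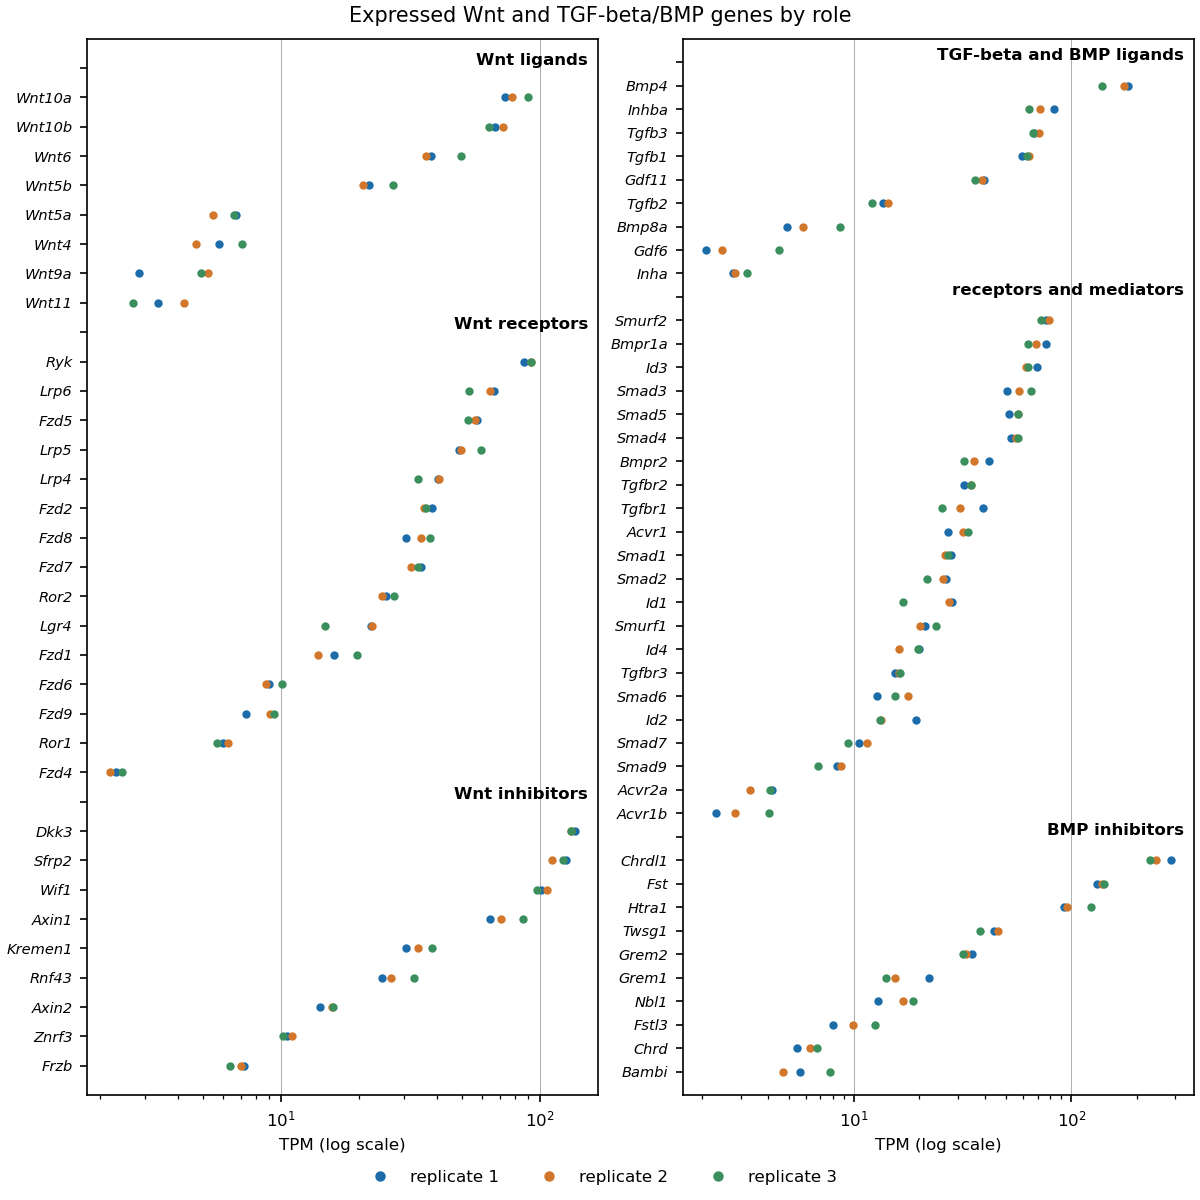
TPM (log scale) of the expressed Wnt genes (left) and TGF-β/BMP genes (right), ordered by role and level, with 1 dot per library coloured by replicate. Dkk3, Sfrp2 and Wif1 lie to the right of every Wnt ligand, and Chrdl1 lies to the right of Bmp4 in all 3 replicates.

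Notch and Hedgehog genes were expressed in 9 of 24 cases (37.5%), beside 49.7% of all protein-coding genes. Smo, the Hedgehog signal transducer gene, had 127 ± 7.91 TPM, Notch2 61.0 ± 2.33, Gli3 20.5 ± 0.710 and the receptor gene Ptch1 20.2 ± 1.18. The Hedgehog ligand genes Shh and Dhh had 0 counts and Ihh 3. Jag1 was the only Notch ligand gene on the list to be expressed, at 4.97 ± 0.905 TPM. Nrarp, a Notch target gene, had 0 counts, but 79.4% of its exon bases overlap another gene.

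Genes of factors that act on osteoclasts were expressed in 11 of 23 cases (47.8%), beside 49.7% of all protein-coding genes. Tnfrsf11b, the osteoprotegerin gene, had 436, 391 and 404 TPM and rank 144. Csf1, the macrophage growth factor gene, had 109 ± 2.16 TPM, Sema3a 72.1 ± 15.5 and the cyclooxygenase gene Ptgs1 49.1 ± 4.80. RANKL mRNA (Tnfsf11) was among those at 0, as were Tnf, Il1b, Csf2, Csf3 and Ccl7, and Il6 and Ccl2 had 2 and 3 counts.

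Integrin genes were expressed in 14 of 25 cases (56%), beside 49.7% of all protein-coding genes. The highest were Itgb1 (698 ± 46.9 TPM), Itgb5 (103 ± 6.28 TPM), the collagen receptor gene Itga11 (101 ± 8.21 TPM) and Itgav (69.8 ± 7.01 TPM). Itga4, Itgam and Itgax, leukocyte integrin genes, had 0 counts. Panx3, a channel gene of osteoblasts and chondrocytes, had 591 ± 26.6 TPM. Cdh11, known as osteoblast cadherin, had 167 ± 17.1 TPM, Cdh2 140 ± 19.3 and Ncam1 116 ± 5.71, and Gja1, the gene of connexin 43, had 75.7 ± 2.43.

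Genes of histone methylation were expressed in 38 of 39 cases at moderate levels, with a median of 29.8 TPM and none among the 1000 highest. Ehmt2 had 91.2 ± 10.9 TPM, Kdm2a 68.4 ± 3.36, Setd2 67.2 ± 11.2 and the Polycomb subunit gene Suz12 66.8 ± 14.5. Kdm4d, a demethylase gene of testis, had 2 counts.

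Markers of macrophages, endothelium, fat, muscle and epithelium were mostly near absent, beside 43.7% of all protein-coding genes. The lists of stromal progenitors, tendon cells and chondrocytes had larger expressed shares. These were 87.5%, 57.1% and 44.4%, beside 49.7% of all protein-coding genes. Of the macrophage and osteoclast markers, 13 of 20 were near absent, with Ptprc, Adgre1, Itgam and Tyrobp at 0, and the whole list took between 0.0193% and 0.0202% of counts. Its 4 expressed members were Ctsk (356 ± 14.2 TPM), Mmp9 (17.1 ± 1.55 TPM), Cd14 (2.00 ± 0.127 TPM) and Csf1r (1.22 ± 0.434 TPM). Lyz2, Cd68 and Fcer1g were in between with 31, 23 and 13 counts, and Acp5 had 2 counts. The 9 endothelial markers had no expressed member, with Cdh5, Emcn and Cldn5 at 0. Adipocyte, muscle and epithelial markers each had 1 expressed member (Cebpa at 11.4 ± 2.13, Des at 3.34 ± 0.874 and Krt14 at 8.96 ± 0.904 TPM), while Adipoq, Myod1 and Epcam were at 0. Among 16 markers of stromal progenitors, 14 were expressed, the highest being Acta2, smooth muscle actin, with 668, 808 and 1088 TPM and replicate 3 highest.

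Chondrocyte markers were expressed in 8 of 18 cases (44.4%), beside 49.7% of all protein-coding genes. Col2a1, the main collagen gene of cartilage, had 395, 429 and 405 TPM (rank 145), and Sox9, the master regulator of chondrocytes, 188, 212 and 176 TPM. Col11a2 (414 ± 66.5 TPM), Col11a1 (289 ± 64.0 TPM) and the link protein gene Hapln1 (209 ± 41.6 TPM) were expressed too. Acan, Col9a1 and Ihh had 3 counts each, Col10a1 had 1, and Matn1 and Chad had none. Of 7 tendon markers 4 were expressed: Fmod, described above with the proteoglycans, the transcription factor gene Scx (32.3 ± 3.53 TPM), Egr1 (23.9 ± 5.82 TPM) and Mkx (4.68 ± 0.191 TPM). Tnmd, the gene of tenomodulin, had 4 counts, Kera 1 and Thbs4 none.

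**Figure D4:**
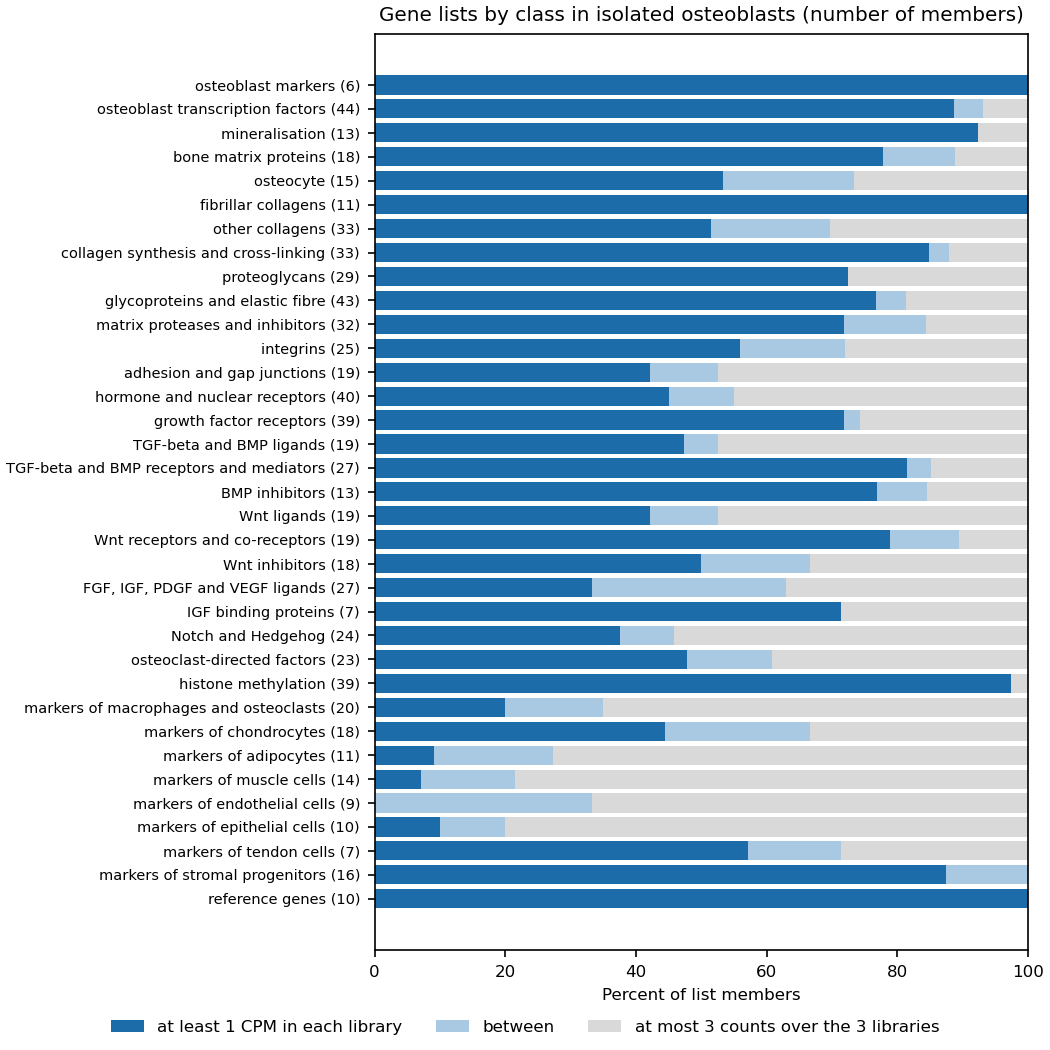
Percent of the members of each gene list (number of members in brackets) that were expressed (dark), near absent (grey) or in between (light). All 11 fibrillar collagens and 38 of 39 histone methylation genes were expressed, against 4 of 20 macrophage and osteoclast markers and 0 of 9 endothelial markers.

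The spread between libraries was small for most genes. Among the 6166 expressed protein-coding genes with a mean of at least 20 CPM, the median coefficient of variation of CPM was 9.17%, with 5th and 95th percentiles of 2.36% and 22.7%. Replicate 3 was the highest or lowest library for 82.9% of them, replicate 1 for 76.6% and replicate 2 for 40.5%. Replicate 3 was highest or lowest for 64 of the 66 genes with a coefficient over 30%. Ankrd39 varied most, with 11.1, 15.6 and 59.3 CPM in replicates 1, 2 and 3. Lars2, the mitochondrial leucyl-tRNA synthetase gene, had 75.3, 103 and 240.2 CPM. Cacybp, mt-Nd6, Pnisr, Nexn, Fam92a, Omd and Eif3j2 were lowest in replicate 3, and Tspo was highest there. Ibsp was also lowest in replicate 3, with 9621 CPM there against 14448 and 12990. Genes under 40% GC had median log2 deviations from the mean level of 0.24, -0.03 and -0.21 in replicates 1, 2 and 3, and genes over 60% GC had -0.07, -0.01 and 0.11. Whether base composition has a part in the spread was not tested.

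**Figure D5:**
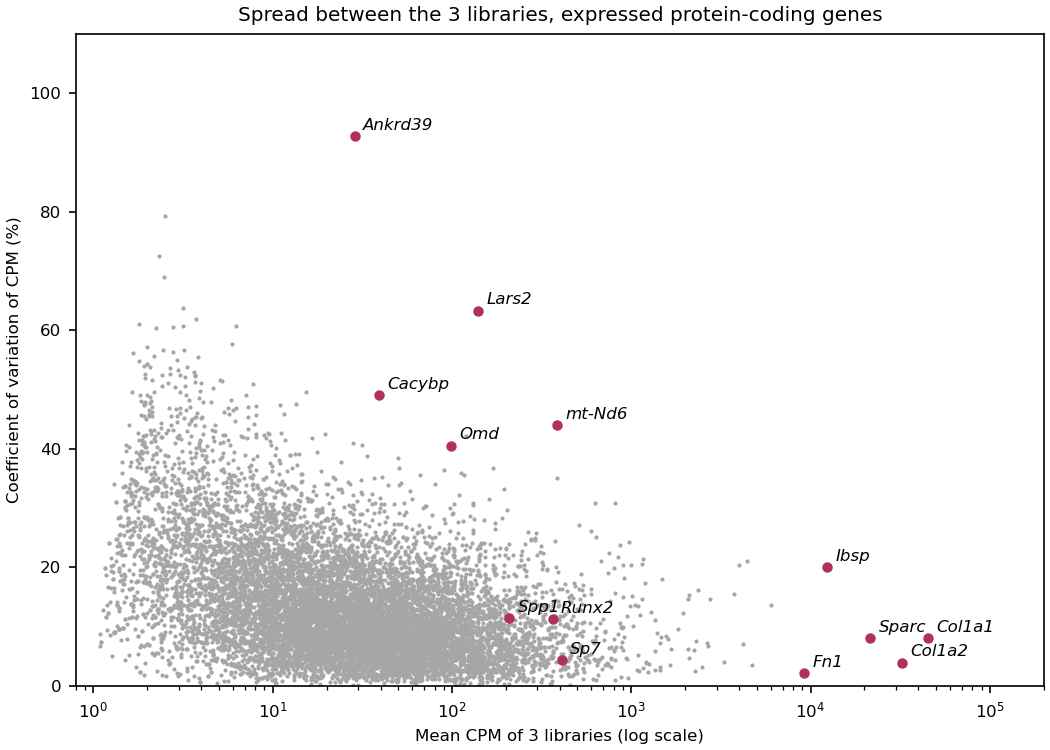
Coefficient of variation of CPM over the 3 libraries (percent) against mean CPM (log scale) for expressed protein-coding genes, with named genes as larger dots. Ankrd39 and Lars2 stand far above the other genes of their level, and Ibsp lies above the other matrix markers.

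Neighbouring levels were often not separable. In the gene lists, 434 pairs of expressed members were adjacent in mean TPM, and 276 of them kept the same order in all 3 libraries. In the signalling lists as a whole, 150 of 271 distinct genes were expressed and 93 were near absent, 73 of these with no count. Of the 93, 54 had no count in any of the 12 libraries and 19 had more than 3 counts in the other 9. The shares of expressed genes, 73 of 89 for bone genes and 150 of 271 for signalling genes, stand beside the 49.7% of all protein-coding genes. Those of near-absent genes, 10 of 89 and 93 of 271, stand beside 43.7%. The lists were chosen with earlier results of these data known, so these shares describe the lists only.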

How the data were processed

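The authors deposited 1 table of raw read counts per gene for each library. Per the submitters' processing notes, the build was mm10 and the tools named were cutadapt, FastQC 0.63, STAR 2.4, HTSeq and DESeq2. Their order and settings, the annotation release and the strand setting are not given in the sources used here, so reads from overlapping or antisense genes cannot be set apart. The libraries were made with a SMARTer kit from total RNA. Per the labels the 3 libraries are separate replicates of 1 group.

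The tables differ in length, and the last line of 11 of the 12 is cut short. All values therefore use the 52654 genes listed in every table, all of which matched GENCODE M21 (GRCm38) by identifier, 52092 of them with the version. Of the genes of that annotation 2796 (149 protein-coding) were not analysed here. CPM used the total over the common genes, 5866842 to 8386870 per library. TPM were computed from merged exon lengths and scaled over all gene types. At these depths 3 counts over the group come to 0.137 CPM.

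Dispersion was estimated with edgeR 4.0.16 (TMM, filterByExpr, intercept only) in R 4.3.3. Tables were made with pandas 2.3.3 in Python 3.11.15. The calculations were tested on simulated data. No test between groups was run. Alternatives were other thresholds, scaling, lengths and each library left out. Overlap with exons of other genes, 50-base words shared with transcripts of other genes, the promoter windows (those of 6 bone genes are shown) and the gene families in the closing section were added after the values were seen.

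The gene lists (35 lists, 693 genes) and the markers were chosen with earlier results of these data known. Genes were named by rule: the 20 protein-coding genes highest in TPM, the 10 genes highest in CPM, the 6 markers, the 4 highest and the near-absent members of each list, and the 10 expressed protein-coding genes with the largest coefficient of variation at a mean of at least 20 CPM. Not all genes the rule allows are printed, and further list members were named for their known roles after their values were seen. The check of lengths covers 131 of these genes: the markers, the 20 highest in TPM and the expressed ones among the 4 highest of each list. A few list members are counted but their values are not reported here.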

Additional observations from a re-analysis of the deposited data

Results flagged for a closer look

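In isolated control replicate 3, 147 genes beyond the 52654 listed in every library had more than 3 counts. This library has the longest table, with 54275 genes, 1621 of them beyond the common genes. These held 4484 counts together, and 9 of the 147 were annotated as protein-coding. The pseudogene AC122253.2 had 511 counts and the protein-coding gene Riok2 207. Replicates 1 and 2 had 37 and 22 genes of this kind with more than 3 counts. No such values were used above, because the genes are not listed in all 12 libraries.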

How the results depend on the processing

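The number of expressed genes, 12734 here, ranged from 12734 to 16602 under the other thresholds, scalings and left-out libraries, and that of expressed protein-coding genes from 10725 to 12004. Near-absent bone genes numbered 8 to 13 (10 here), near-absent signalling genes 73 to 101 (93 here) and expressed list members 430 to 438 (434 here). The share of protein-coding TPM in the 20 highest genes, 21.3%, was 19.9% without mitochondrially encoded genes. Of these 20 genes, 13 remained among the 20 highest by CPM and 13 with the mean transcript length. With each library left out in turn, the biological coefficient of variation ranged from 7.48% to 15.8% (11.7% here). Of the 131 genes in the check of levels 113 moved by more than 1 SD with the mean transcript length. With that length the TPM of the 131 genes were 0.515 to 3.07 times as high. Scaled over nuclear protein-coding genes alone, all 126 nuclear genes among them moved, to between 1.79 and 1.80 times. With a library left out none of the 131 moved by more than 1 SD. Dropping 1 of 3 libraries cannot shift their mean by that much, so this says nothing on stability. No paired analysis was possible because a single group was described and no contrast was fitted. Depth limits statements on absence to 3 counts over the 3 libraries, and 3 libraries cannot reach p = 0.05 in a two-sided exact test between groups of 3.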

Other observations

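Genes of body position were expressed at low levels and unevenly by cluster. Hox genes encode the homeodomain factors that set position along the body axis. Of 39 Hox genes 12 were expressed and 19 were near absent, beside 49.7% and 43.7% of all protein-coding genes. The highest, Hoxc6, had 5.77 CPM with 41, 52 and 34 counts in replicates 1, 2 and 3. By cluster, 7 of 11 Hoxa, 4 of 9 Hoxc and 1 of 10 Hoxb genes were expressed, and all 9 Hoxd genes had 0 counts. Hoxa10 had 39, 51 and 15 counts. The calvaria is known to form largely from head tissue without Hox expression. The family was chosen after its values were seen.

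Receptor families of sensory neurons give a measure of counts at genes that an osteoblast line has no known use for. None of 1092 olfactory receptor genes and none of 309 vomeronasal receptor genes were expressed by the rule of 1 CPM in each library. Of the olfactory receptor genes 1060 had 0 counts, and the highest had 14 counts over the 3 libraries.

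Common reference genes differed widely in level. Actb had 3874, 4556 and 5678 TPM in replicates 1, 2 and 3, and Rplp0 1992, 2003 and 2502. Gapdh, the glycolytic enzyme gene often used to scale expression, had only 324, 357 and 399 counts, or 38.6 ± 10.8 TPM (SD, n = 3) and rank 2738. Ppia, the cyclophilin A gene, had 54, 78 and 46 counts. Of the 50-base words in their transcripts, 25.1% in Gapdh and 17.3% in Ppia also occur in other genes, against 9.12% in Actb and 40.4% in Eef1a1, which had 2981 ± 454 TPM. Whether reads that fit several places have a part in these levels was not tested.

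Of the 100 protein-coding genes highest in TPM, 91 were also among the 100 highest of the isolated cells on nanotopography. Co-cultured cells shared 87 of them on the control surface and 80 on nanotopography. The overlap between replicates of the same group is not given here, so these counts are not set against the spread between libraries.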
